A study of Homo sapiens with 4 samples.

Results

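The genes described here are 9 human genes whose products act on, or are acted on by, the main drugs for acute lymphoblastic leukaemia (ALL): NR3C1, ASNS, FPGS, SLC19A1, TYMS, TPMT, NT5C2, DCK and SLC29A1. They were taken by gene symbol from an array table of 18377 genes, and each of the 9 had 1 probe set. Total RNA came from 4 established lines of B-cell precursor ALL, and each line was hybridised to a single Affymetrix whole-transcript array. The translocation t(4;11), which rearranges the MLL gene, is present in RS4;11 and SEM, called the MLL-rearranged lines below, and absent from NALM6 and REH. All 4 were grown in RPMI medium with fetal bovine serum. The labels name no drug treatment, and the values are read here as levels in untreated cells. Each line comes from 1 patient's leukaemia, and a group of 2 lines samples the leukaemias with or without this translocation only thinly.

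Glucocorticoids such as prednisolone and dexamethasone bind the receptor encoded by NR3C1, which moves to the nucleus, regulates target genes and kills lymphoid cells. Asparaginase removes asparagine from the blood, and a cell with active asparagine synthetase (ASNS) can make its own. Methotrexate enters through the folate carrier SLC19A1, is retained after FPGS adds glutamates to it, and in that form also inhibits thymidylate synthase (TYMS). Thiopurines are methylated by TPMT, and their nucleotides are dephosphorylated by NT5C2. Cytarabine enters through the nucleoside transporter SLC29A1 and is phosphorylated first by DCK.

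Values are log2 expression levels as the submitters processed them, and their scale was inferred from the numbers. The median over all gene values was 6.75. Levels of different genes are not compared, because each probe set has its own response. With 1 array per line there is no replicate error for a single line, and the number of arrays limits the precision of every comparison. The median standard error (SE) of a group difference over all genes, 0.14, is also the typical SD between 2 lines of a group and serves below as a yardstick for gaps between lines. In bulk RNA, fewer cells with a transcript and less of it per cell cannot be told apart.

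The B-lineage label was checked on 13 measured markers. All 13 lay above the median of all gene values in RS4;11 and NALM6, 12 did in REH and 8 in SEM, whose median marker level was 7.57 against 10.56 to 11.61 in the other lines. Of 14 T and NK cell markers 1 or 2 lay above that median in each line, of 13 myeloid markers 1 or 2, and of 7 erythroid and megakaryocyte markers 0. NKG7 and ZAP70 were the T and NK cell markers above it in RS4;11 (10.99 and 9.75) and in SEM (9.13 and 8.80). ZAP70 also lay above it in NALM6 (8.96), and NKG7 in REH (7.11). The part of these differences in the results below was not tested.

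Between the groups, 0 of the 9 genes passed limma's threshold of an adjusted p under 0.05 over all genes, against a background of 0.0218% of genes (0.0109% in each direction). Likewise 0 had an unadjusted p under 0.05, against 9.39% of all genes (4.6% higher and 4.79% lower), shares against which the counts of every gene list below are to be read. Their adjusted p-values lay between 0.565 for TPMT and 0.994 for TYMS. The difference, MLL-rearranged lines minus the others, was below 0 in 6 genes and above 0 in 3, with a median of -0.06 against 0.01 over all genes. In 4 of the 9 the groups did not overlap, against 42.8% of all genes, which is near the background (3 lower, against 19.8%, and 1 higher, against 23.0%). ASNS, TPMT and NT5C2 were lower in both MLL-rearranged lines than in either other line, and SLC29A1 was higher, by a margin that rounds to 0.00, and the count was 3 after repeated quantile normalization. In 0 of the 9 was the gap between the nearest lines of the 2 groups 2-fold or more, against 1.84% of all genes. The smallest p that an exact permutation test of 2 lines against 2 allows is 0.333.

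**Figure D1:**
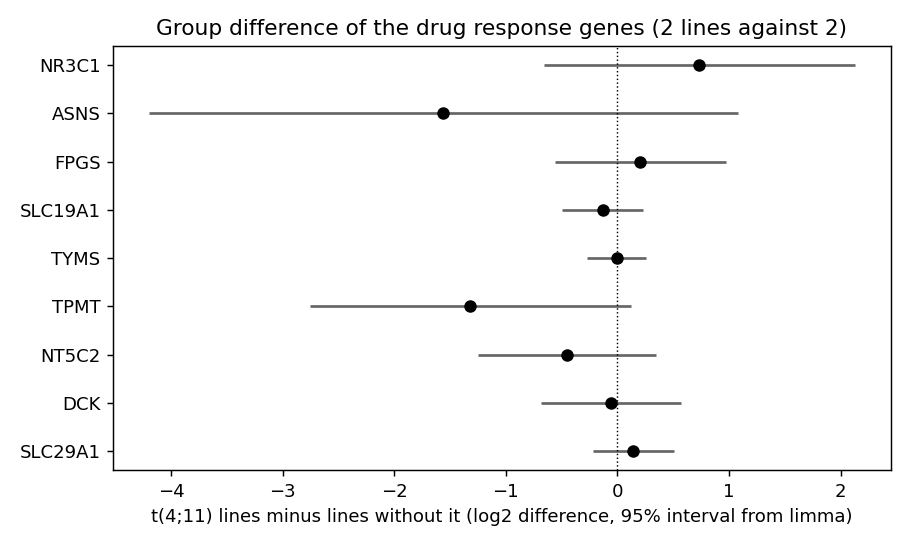
Group difference of the 9 drug response genes. The horizontal axis is the mean log2 level of RS4;11 and SEM minus that of NALM6 and REH, points are limma's estimates, and bars are 95% intervals. All 9 intervals cover 0, from the narrow one of TYMS (-0.27 to 0.26) to the wide one of ASNS (-4.20 to 1.08).

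Single lines stood apart for some of these genes. The range over the 4 lines, highest minus lowest level, reached 2-fold in 3 of the 9 genes, against 19.3% of all genes and 24.9% of genes with a mean level above the median, and 4-fold in 1, against 7.56%. These 3 were ASNS, TPMT and NR3C1, and in each of them 1 line stood apart. RS4;11 was at least 2-fold above each other line for NR3C1, which holds for 0.707% of all genes, and at least 2-fold below each for ASNS (0.669%). NALM6 was at least 2-fold above each for TPMT (1.19%). In the other combinations of a line and a direction 0 of the 9 genes were as far apart, against 0.702% to 2.19% of all genes. In the other 6 genes the range stayed below 2-fold.

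**Figure D2:**
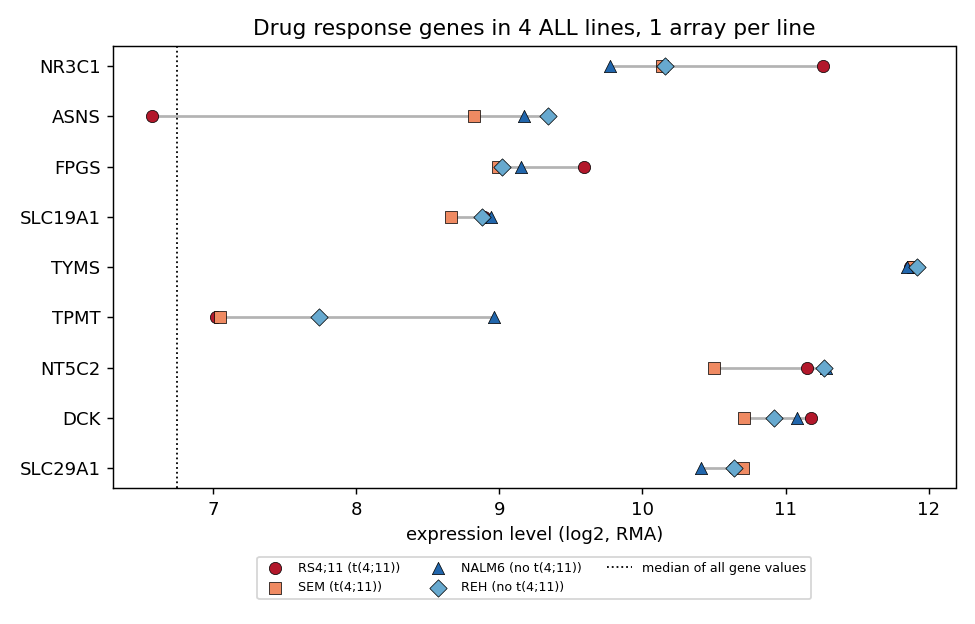
Expression level (log2) of the 9 drug response genes in the MLL-rearranged lines RS4;11 and SEM and in NALM6 and REH. Each marker is 1 array, the grey bar spans the range, and the dotted line is the median of all gene values (6.75). ASNS in RS4;11 (6.57), TPMT in NALM6 (8.96) and NR3C1 in RS4;11 (11.26) stand apart, while the 4 markers of TYMS lie on top of each other.

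NR3C1, the glucocorticoid receptor gene, was at 11.26 (RS4;11), 10.14 (SEM), 9.77 (NALM6) and 10.16 (REH). RS4;11 stood 2.14-fold above the next line, REH and SEM differed by 0.01, less than the yardstick, and NALM6 was lowest. The 2 MLL-rearranged lines thus lay on both sides of REH, and the groups overlapped. Their means were 10.70 ± 0.79 and 9.96 ± 0.27 (SD, n = 2 lines each), a difference of 0.73 (SE 0.46, 95% interval -0.66 to 2.13, limma adjusted p = 0.724). Without RS4;11 the difference was 0.18.

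Of the 10 measured genes nearest to NR3C1 in the RefSeq gene order (assembly GRCh38.p14), 1 was highest in RS4;11. RS4;11 minus the mean of the other lines was 1.23 for NR3C1, and for its neighbours it ran from -1.53 to 0.90 with a median of -0.13, above 0 in 3 and below 0 in 7. The genes whose pattern over the 4 lines came closest to that of NR3C1 were NIPSNAP3B, FCGR2A and GGH. Likeness was the root mean square difference of log2 levels centred on each gene's mean, 0.13, 0.13 and 0.15, against a median of 0.60 over the 9188 genes searched. The smallest of 9188 values over 4 lines lie far below the median by selection. Such likeness, here and below, is therefore no evidence of a link. FCGR2A, an immunoglobulin Fc receptor gene, was at 8.73 in RS4;11 and between 7.46 and 7.54 in the other 3 lines.

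Glucocorticoid receptors are held ready for hormone by HSP90 chaperones and work through coactivators and corepressors. The list read here holds NR3C1, genes of this kind, and also NLRP3 and CASP1, which are neither chaperones nor cofactors. Of its 17 measured genes, 0 passed limma's adjusted threshold in either direction. At an unadjusted p under 0.05, 1 was higher and 0 lower in the MLL-rearranged lines. The one was NLRP3, the sensor of the inflammasome that activates caspase-1, a protease known to cleave the glucocorticoid receptor. NLRP3 was at 9.33 in RS4;11 and 9.10 in SEM, against 6.87 in NALM6 and 5.16 in REH (difference 3.21, SE 0.67, limma adjusted p = 0.405). Both MLL-rearranged lines lay above both others, as in 23.0% of all genes. Selection by a low p favours such an order, so that the order adds no support. CASP1, the gene of caspase-1, did not follow this order, at 7.80, 9.25, 9.08 and 6.95 in RS4;11, SEM, NALM6 and REH.

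FKBP4, a cochaperone of the receptor, was highest in REH at 10.40 and lowest in SEM at 7.52, with 9.28 in RS4;11 and 9.26 in NALM6. The mineralocorticoid receptor gene NR3C2, whose product also binds glucocorticoids, was at 7.52 in REH and at 5.02 to 6.02 in the other lines, below the median of all gene values there. Both were thus highest in REH.

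Genes known to be induced by glucocorticoids were measured in cells grown with serum, and the labels name no added hormone. Of 19 measured, 0 passed limma's threshold, and 1 was higher (KLF9) and 1 lower (BTG1) in the MLL-rearranged lines at an unadjusted p under 0.05. TSC22D3, which encodes the glucocorticoid-induced leucine zipper protein GILZ, was at 9.42 (RS4;11), 9.29 (SEM), 7.66 (NALM6) and 10.24 (REH). NALM6 was the lowest line for TSC22D3 as for NR3C1, but REH and not RS4;11 was the highest. DUSP1, a MAP kinase phosphatase gene, was also highest in REH, at 12.03 against 9.40 to 10.65. SGK1, a kinase gene, and BMF, a pro-apoptotic BCL2 family gene, were highest in SEM, SGK1 at 8.10 against 5.44 to 6.10 and BMF at 8.89 against 6.17 to 7.29. RS4;11, the line with the most NR3C1, was the highest line in 2 of the 19 genes, 10.5% of them, against 27.1% of all genes.

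ASNS, which makes asparagine from aspartate and glutamine, was at 6.57 (RS4;11), 8.82 (SEM), 9.17 (NALM6) and 9.34 (REH). RS4;11 lay 4.77-fold below the next line, at about the median of all gene values, and the other 3 lay within 0.52 of each other. This was the widest range of the 9 genes (2.77, or 6.83-fold), and 4.59% of all genes had a range at least as wide. The group means were 7.69 ± 1.59 and 9.26 ± 0.12 (SD, n = 2 lines each), a difference of -1.56 (SE 0.88, 95% interval -4.20 to 1.08, limma adjusted p = 0.697). The difference was -0.43 without RS4;11 and -2.69 without SEM, so that its size moved with the line left out.

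For the 10 nearest measured neighbours of ASNS, RS4;11 minus the mean of the other lines ran from -0.14 to 0.44 with a median of 0.04, against -2.54 for ASNS itself. XPO7, a nuclear transport receptor gene, ERCC6L and NKAPP1 had the patterns most like that of ASNS, with root mean square differences of 0.10, 0.14 and 0.18 against a median of 1.15 over 9188 genes. They were picked as the smallest, and a link was not tested. XPO7 was at 8.31 in RS4;11 and at 10.58, 10.75 and 10.86 in SEM, NALM6 and REH.

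ASNS is a classic target of the amino acid response, in which shortage of an amino acid raises the factor ATF4, and ATF4 binds composite sites with C/EBP partners. The ASNS promoter is shown because it holds the pair of nutrient-sensing elements through which this is known to occur. It comes from RefSeq (GRCh38.p14, chr7:97872409-97872658, minus strand, written 5′ to 3′ along the gene) and ends at the base before an annotated start site. Capitals mark TGATGAAAC, at -68 to -60 from the start, and GTTACA, at -48 to -43, with 11 bases between them.
ASNS promoter: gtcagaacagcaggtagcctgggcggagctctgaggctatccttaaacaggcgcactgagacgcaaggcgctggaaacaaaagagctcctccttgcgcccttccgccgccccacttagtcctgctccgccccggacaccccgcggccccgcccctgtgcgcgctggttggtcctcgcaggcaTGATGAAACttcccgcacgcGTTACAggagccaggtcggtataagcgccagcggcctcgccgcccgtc
On either strand, TGATGAAAC was found in 0.196% and GTTACA in 5.59% of 35116 upstream windows of 250 bases, and both in 13 windows (0.037%).

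The genes of asparagine, aspartate and glutamine supply and of the amino acid response were read beside ASNS, and 34 of the 36 listed were measured. RS4;11 was the lowest line in 13 of the 34 (38.2%), against 19.9% of all genes, and the highest in 1, against 27.1%. The median of RS4;11 minus the mean of the other lines was -0.24 in the list and 0.02 over all genes. NALM6 was the highest line in 18 of the 34, against 25.0% of all genes. ASNS itself is among the 13.

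The 13 also hold CHAC1, SLC7A11, TRIB3 and SESN2. CHAC1, a glutathione-degrading enzyme gene, was at 7.35 (RS4;11), 8.32 (SEM), 9.36 (NALM6) and 8.74 (REH). SLC7A11, the cystine transporter gene, was at 8.19, 9.64, 9.37 and 10.75 in the same order of lines. RS4;11 was 2-fold or more below each other line in 2 genes of the list, ASNS and SLC7A11. TRIB3, a pseudokinase gene, was at 6.40, 6.86, 8.29 and 7.58, and SESN2, a stress-induced regulator of mTORC1, at 5.60, 6.35, 7.12 and 6.88, with SEM second lowest in both. The 13 hold further genes, ATF4 among them. In the genes of the list outside the 13 RS4;11 was not the lowest line. The stress factor gene DDIT3 was at 8.30 in RS4;11 and 8.07 in SEM, and PSAT1, an enzyme gene of serine synthesis, was lowest in REH, at 9.75 against 10.41 in RS4;11. The transcript of ATF4 itself varied little, at 10.10 (RS4;11), 10.20 (SEM), 10.45 (NALM6) and 10.19 (REH), which leaves its protein unmeasured.

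**Figure D3:**
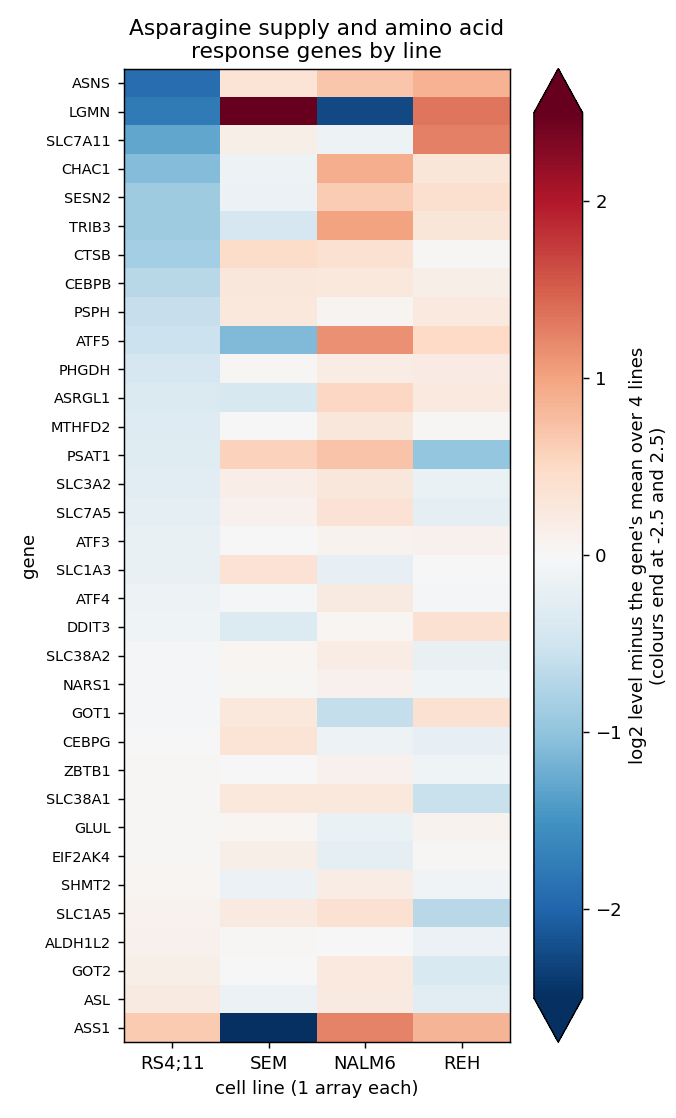
Log2 level minus the gene's own mean over the 4 lines, for 34 genes of asparagine supply and the amino acid response, ordered by the value in RS4;11. Blue is below and red above the gene's mean, and colours end at -2.5 and 2.5. ASNS heads the blue end of the RS4;11 column, RS4;11 is the lowest line in 13 genes and NALM6 the highest in 18.

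Between the groups, 0 of these 34 genes passed limma's threshold, and 4 were lower and 0 higher in the MLL-rearranged lines at an unadjusted p under 0.05, against 4.79% and 4.6% of all genes. The 4 were ASRGL1, ATF5, TRIB3 and SESN2. ATF5, a further transcription factor of this response, was at 9.48 and 8.91 in RS4;11 and SEM against 11.15 and 10.50 in NALM6 and REH (difference -1.64, SE 0.34, limma adjusted p = 0.406). TRIB3 differed by -1.30 (SE 0.34, limma adjusted p = 0.463) and SESN2 by -1.03 (SE 0.32, limma adjusted p = 0.505). In each of them both MLL-rearranged lines lay below both others, as in 19.8% of all genes. Selection by a low p favours such an order, so that the order adds no support. The list median was -0.12, against 0.01 over all genes.

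The composite motif TGATGNAAN, searched on both strands, occurred within 250 bases upstream of a RefSeq start in 7 of the 28 genes of the list with a window (25.0%), against 3.87% of 27305 genes, each with 1 or more windows. The list was chosen to hold genes of this response, so that a surplus of its motif over all genes was built in and is no test. The number of windows per gene was not matched. Of the 9 drug response genes, ASNS alone held the motif. The 7 sites are shown to let the letters be set beside the levels. Each is written 5′ to 3′ on the strand of the motif with up to 10 bases on either side, and the motif is in capitals. GOT1 and CHAC1 carry it on the strand opposite to the gene.
ASNS site, GRCh38.p14 chr7:97872458-97872486, minus strand: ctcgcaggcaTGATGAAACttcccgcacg
CHAC1 site, chr15:40953251-40953279, minus strand: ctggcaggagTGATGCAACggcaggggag
CEBPG site, chr19:33374061-33374089, plus strand: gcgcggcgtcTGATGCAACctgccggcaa
GOT1 site, chr10:99430805-99430833, plus strand: ctgccgagaaTGATGCAACcaatgcaatt
SLC1A5 site, chr19:46784893-46784921, minus strand: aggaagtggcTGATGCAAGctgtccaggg
SLC1A3 site, chr5:36596358-36596386, plus strand: aggaaatgacTGATGCAAAgcagggttaa
ATF3 site, chr1:212565206-212565234, plus strand: aaggtcaggaTGATGGAAGgctgtcatat
RS4;11 minus the mean of the other lines was -2.54 for ASNS and -1.46 for CHAC1, but -0.02 for CEBPG, -0.03 for GOT1, 0.12 for SLC1A5, -0.24 for SLC1A3 and -0.25 for ATF3. Thus 2 of the 7 genes with the motif were far lower in RS4;11. SLC1A3 and ATF3 lay at 4.59 to 5.53 in every line, below the median of all gene values. Among genes of the list with no site shown, SLC7A11 (-1.74) and TRIB3 (-1.18) were also lower in RS4;11, while ASS1 (0.87) was higher. A tie between motif and level was not tested.

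Other genes of this list varied in other lines. LGMN encodes legumain, a lysosomal asparaginyl endopeptidase known to degrade asparaginase, and was at 10.47 in SEM and 9.14 in REH against 6.02 in RS4;11 and 5.54 in NALM6. It was thus high in 1 line of each group. ASS1, which uses aspartate to make argininosuccinate, was at 7.24 in SEM and between 10.63 and 11.21 in the other 3 lines.

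SLC19A1, the reduced folate carrier gene, was at 8.89 (RS4;11), 8.66 (SEM), 8.94 (NALM6) and 8.88 (REH). SEM was lowest, 0.22 below REH, and the other 3 lines lay within 0.05 of each other. The group means were 8.78 ± 0.16 and 8.91 ± 0.04 (SD, n = 2 lines each), and the difference was -0.13 (SE 0.12, 95% interval -0.50 to 0.23, limma adjusted p = 0.767). This interval lies within 2-fold in both directions, but it rests on 2 lines against 2 and is not adjusted for the 9 genes.

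FPGS, the folylpolyglutamate synthase gene, was at 9.59 (RS4;11), 8.99 (SEM), 9.15 (NALM6) and 9.02 (REH). RS4;11 was 1.36-fold above the next line, and the gaps among the other 3 lines, 0.13 and 0.03, were below the yardstick. The group means were 9.29 ± 0.43 and 9.09 ± 0.09 (SD, n = 2 lines each), a difference of 0.20 (SE 0.25, 95% interval -0.56 to 0.97, limma adjusted p = 0.827). Its sign turned without RS4;11, to -0.10.

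GGH encodes the hydrolase that removes the glutamates FPGS adds. It was also highest in RS4;11, at 10.33, with 9.45 in SEM, 8.89 in NALM6 and 9.04 in REH (difference 0.93, SE 0.36, limma adjusted p = 0.584). RS4;11 thus had the highest level of both the synthase and the hydrolase gene.

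TYMS, the target of polyglutamated methotrexate and of fluorinated pyrimidines, was the most even of the 9 genes, at 11.87 (RS4;11), 11.89 (SEM), 11.85 (NALM6) and 11.92 (REH). Its range was 0.07, and 2.80% of all genes had a range as narrow. No gap between neighbours in this order exceeded 0.03. The group means were 11.88 ± 0.01 and 11.89 ± 0.05 (SD, n = 2 lines each), and the difference rounded to 0.00 (SE 0.09, 95% interval -0.27 to 0.26, limma adjusted p = 0.994), with a sign that turned when arrays were centred on their medians (0.02). TYMS is transcribed in dividing cells. The S phase and proliferation genes, which include it, had a median range of 0.40 over 26 genes, against 0.38 over all genes. All 26 lay above the median of all gene values in every line. Their range reached 2-fold in 7.69%, against 24.9% of genes with a mean level above the median. Of these 26, 0 passed limma's threshold, and 3 were higher and 0 lower in the MLL-rearranged lines at an unadjusted p under 0.05, against 4.6% and 4.79% of all genes.

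Of 25 measured genes of folate transport, polyglutamation and antifolate targets, the 3 above included, 0 passed limma's threshold, and 0 were higher and 1 lower at an unadjusted p under 0.05. The one was ABCG2, an efflux transporter gene, at 4.86 in RS4;11 and 4.83 in SEM against 8.68 in NALM6 and 6.69 in REH (difference -2.83, SE 0.78, limma adjusted p = 0.481). In both MLL-rearranged lines ABCG2 was below the lower quartile of each array (4.97 to 5.02), where a difference on these arrays is compressed. SLC46A1, the proton-coupled folate transporter gene, was at 6.66 in RS4;11 and at 4.70 to 5.46 elsewhere. ABCC4, an exporter of methotrexate and of thiopurine nucleotides, was lowest in REH, at 8.34 against 9.33 to 9.82. The list median of the group difference was 0.03.

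TPMT, the thiopurine methyltransferase gene, was at 7.02 (RS4;11), 7.05 (SEM), 8.96 (NALM6) and 7.74 (REH). NALM6 was 2.32-fold above REH, REH was 1.62-fold above SEM, and SEM and RS4;11 differed by 0.03. The MLL-rearranged lines were both below the other lines, whose own values differed by more than the gap between the groups. The means were 7.04 ± 0.02 and 8.35 ± 0.86 (SD, n = 2 lines each), a difference of -1.32 (SE 0.48, 95% interval -2.75 to 0.12, limma adjusted p = 0.565), which was the smallest adjusted p of the 9 genes. The difference was -0.71 without NALM6 and -1.92 without REH.

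TPMT lies head to head with KDM1B, a histone demethylase gene, and 252 bases separate their annotated start sites. KDM1B was at 9.22 (RS4;11), 8.93 (SEM), 10.42 (NALM6) and 9.80 (REH), so that NALM6 was highest and REH second for both genes. NALM6 was the highest line in 25.0% of all genes, and a tie between the shared order and the shared stretch was not tested. The sequence between TPMT and KDM1B is shown because it lies upstream of both genes. It is the stretch from RefSeq (GRCh38.p14, chr6:18155170-18155419, minus strand, written 5′ to 3′ toward TPMT), in which capitals mark a repeated unit of 15 bases.
TPMT promoter: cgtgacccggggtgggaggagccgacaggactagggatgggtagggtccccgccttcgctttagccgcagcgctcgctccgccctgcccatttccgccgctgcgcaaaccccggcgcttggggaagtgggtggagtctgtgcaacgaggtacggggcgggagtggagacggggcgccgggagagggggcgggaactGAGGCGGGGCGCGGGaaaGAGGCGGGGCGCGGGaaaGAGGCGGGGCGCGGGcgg
The unit GAGGCGGGGCGCGGG occurs 3 times at steps of 18 bases, from -54 to -4. On either strand, 5 of the 35116 windows of all genes (0.0142%) hold it at least 2 times, and these belong to 4 genes. This is the reference sequence, and the arrays do not read the number of copies in each line.

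Among the 10 measured neighbours of TPMT, NALM6 minus the mean of the other lines ran from -4.38 to 2.99 with a median of -0.05, against 1.69 for TPMT. RNF144B, a ubiquitin ligase gene, was at 5.23 (RS4;11), 5.13 (SEM), 8.63 (NALM6) and 6.56 (REH). NALM6 was thus highest and REH second for RNF144B, as for TPMT and KDM1B. MBOAT1 was at 4.66 in NALM6 and 8.51 to 9.66 elsewhere. The neighbourhood thus held genes that were high and genes that were low in NALM6. CTNS, KCTD17 and FGD6 had the patterns most like that of TPMT, with root mean square differences of 0.09, 0.14 and 0.15 against a median of 0.81 over 9188 genes. They too were picked as the smallest, and a link was not tested. CTNS, the lysosomal cystine transporter gene, was at 7.36, 7.54, 9.20 and 8.07 in RS4;11, SEM, NALM6 and REH.

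NT5C2, a cytosolic nucleotidase gene that is mutated in some relapsed ALL, was at 11.15 (RS4;11), 10.50 (SEM), 11.28 (NALM6) and 11.27 (REH). SEM was 1.58-fold below the next line, and the other 3 lines lay within 0.13 of each other. The means were 10.82 ± 0.46 and 11.28 ± 0.01 (SD, n = 2 lines each), a difference of -0.45 (SE 0.27, 95% interval -1.25 to 0.35, limma adjusted p = 0.711), and -0.12 without SEM. These levels say nothing about mutations.

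Of 25 measured genes of thiopurine activation and inactivation, TPMT and NT5C2 included, 0 passed limma's threshold, and 1 was higher (APRT) and 1 lower (PMS2) in the MLL-rearranged lines at an unadjusted p under 0.05. PMS2 belongs to mismatch repair, which is known to mediate the toxicity of incorporated thioguanine, and was at 8.76 in RS4;11 and 7.81 in SEM against 9.76 in NALM6 and 9.66 in REH (difference -1.43, SE 0.38, limma adjusted p = 0.469). Both MLL-rearranged lines lay below both others, as in 19.8% of all genes, an order that selection by a low p favours. AOX1, an aldehyde oxidase that oxidises thiopurines, was at 7.94 in NALM6 and at 4.67 to 5.03 in the other lines, so that NALM6 was the highest line for AOX1 as for TPMT. NT5E, the surface nucleotidase CD73, was highest in SEM at 7.88, against 4.73 to 5.85. The list median of the group difference was -0.01.

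DCK, the deoxycytidine kinase gene, was at 11.18 (RS4;11), 10.71 (SEM), 11.08 (NALM6) and 10.92 (REH). Its range was 0.46, and the gaps from one line to the next were 0.09, 0.17 and 0.20. The group means were 10.94 ± 0.33 and 11.00 ± 0.12 (SD, n = 2 lines each), and the difference was -0.06 (SE 0.21, 95% interval -0.68 to 0.57, limma adjusted p = 0.951). Its sign turned without SEM (0.18) and without NALM6 (0.03).

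SLC29A1, the equilibrative nucleoside transporter ENT1, was at 10.64 (RS4;11), 10.70 (SEM), 10.41 (NALM6) and 10.64 (REH). NALM6 was lowest, 0.22 below REH, and the other 3 lines lay within 0.06. The means were 10.67 ± 0.04 and 10.53 ± 0.16 (SD, n = 2 lines each), a difference of 0.14 (SE 0.12, 95% interval -0.22 to 0.51, limma adjusted p = 0.754). The intervals of DCK and SLC29A1, like those of SLC19A1, FPGS and TYMS, lie within 2-fold in both directions.

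Of 23 measured genes of cytarabine transport, activation and inactivation, DCK, SLC29A1 and NT5C2 included, 0 passed limma's threshold, and 1 was higher (SLC29A3) and 1 lower (NT5C3A) in the MLL-rearranged lines at an unadjusted p under 0.05. SAMHD1 hydrolyses deoxynucleoside triphosphates and is known to inactivate the triphosphate of cytarabine. It was at 10.86 in SEM, 9.45 in NALM6, 9.37 in RS4;11 and 7.71 in REH, a range of 8.86-fold, and the MLL-rearranged line RS4;11 lay just below NALM6. SLC29A2, a further nucleoside transporter gene, was at 9.30 (RS4;11), 7.24 (SEM), 8.27 (NALM6) and 6.53 (REH). Thus SLC29A2 varied 6.81-fold where SLC29A1 varied 1.22-fold.

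CTPS2, a CTP synthase gene, also varied widely. It was at 9.69 in RS4;11 and 9.54 in NALM6 but at 4.64 in SEM and 4.62 in REH, also below the lower quartile of the arrays. Signal over background is unknown there, so that no fold is given. This makes 1 high and 1 low line in each group and a group difference of 0.08 (SE 2.73). TK2, the mitochondrial thymidine kinase gene, ran from 6.24 in NALM6 to 8.0 in REH. The list median of the group difference was 0.02.

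**Figure D4:**
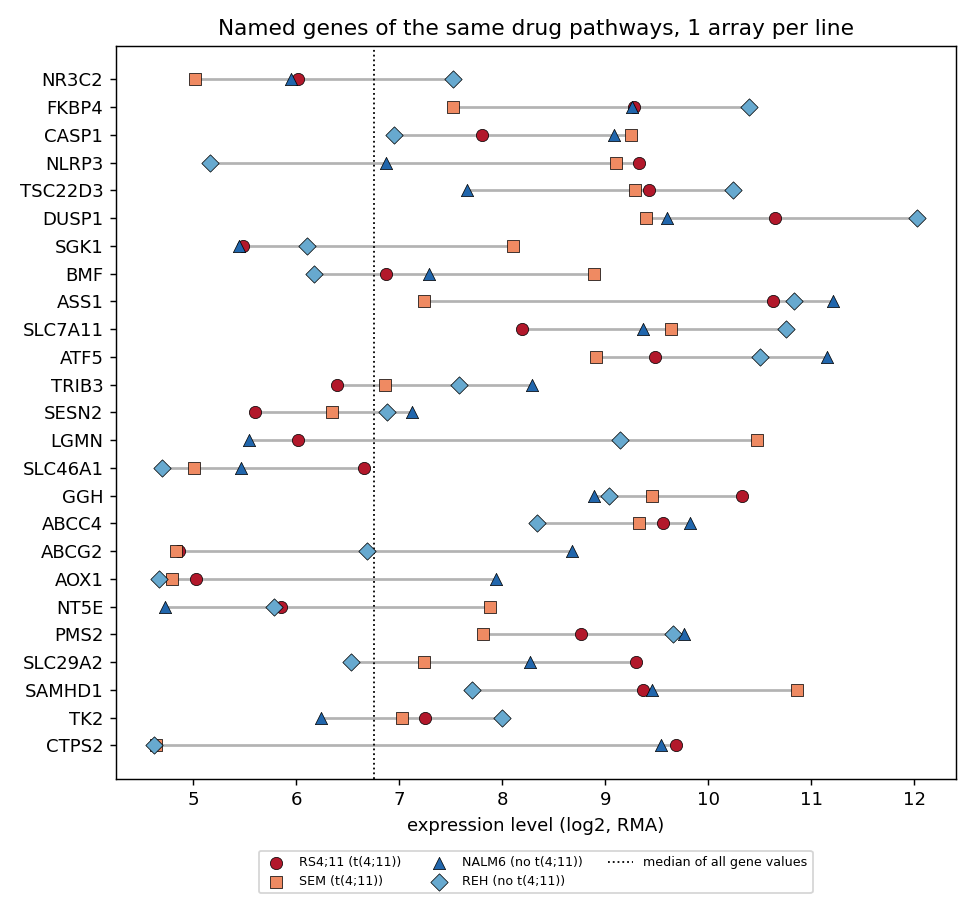
Expression level (log2) of 25 named genes of the same drug pathways in the 4 lines, 1 marker per array, with the range as a grey bar and the median of all gene values (6.75) as a dotted line. CTPS2 and LGMN are high in 1 line of each group, NLRP3 is higher in both MLL-rearranged lines, and ABCG2 lies at 4.83 and 4.86 in them.

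Over the 6 drug lists together, 137 of 152 genes were measured, and 0 passed limma's threshold. An unadjusted p under 0.05 was reached by 12, 4 higher and 8 lower in the MLL-rearranged lines, or 8.76% against 9.39% of all genes, which is near the background. Their range reached 2-fold in 44 genes (32.1%), against 19.3% of all genes and 24.9% of genes with a mean level above the median. By list this share was 47.4% for glucocorticoid-induced genes, 36.0% for thiopurine genes, 35.3% for the receptor and its cofactors, 32.4% for the amino acid list, 21.7% for cytarabine genes and 20.0% for folate genes, the last 2 below the 24.9%.

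**Figure D5:**
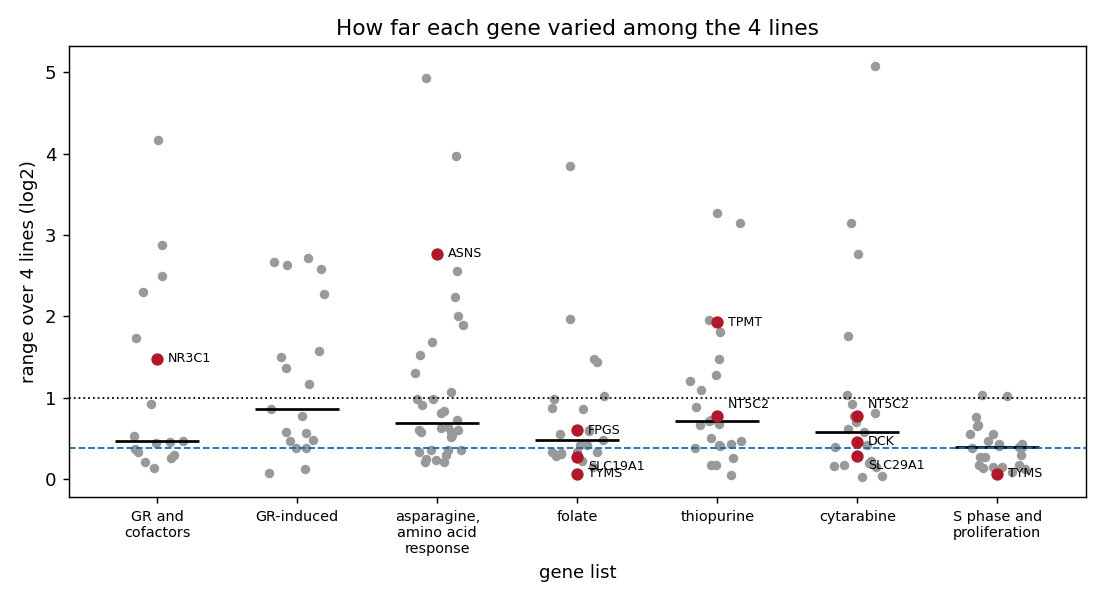
Range over the 4 lines (highest minus lowest log2 level) of each measured gene, by list. Red points are the drug response genes, grey points the other genes, black bars list medians, the dotted line a 2-fold range and the dashed blue line the median over all genes (0.38). ASNS (2.77), TPMT (1.93) and NR3C1 (1.48) lie above the dotted line and the other 6 drug response genes below it.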

How the data were processed

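Expression was measured in 4 ALL cell lines on Affymetrix whole-transcript arrays. The authors deposited 1 table of log2 values, made with RMA and Partek per the submitters' processing notes. Their versions and the annotation build are not stated in the labels or the file. RMA includes quantile normalization, which removes array-wide differences, and gives no detection call. The log2 scale was inferred from the values (3.44 to 14.27, array medians 6.40 to 6.46). Of 32968 probe sets, 19310 were annotated with exactly 1 gene symbol, 1752 with several and 11906 with none. Of the 19310, 19279 matched RefSeq (GRCh38.p14) by Entrez ID. The probe set with the highest mean represented each of 18377 genes.

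Groups follow the labels, with the cell line as replicate (n = 2 against 2): RS4;11 and NALM6 are replicate 1, SEM and REH replicate 2, numbers that only name them. P-values therefore measure how lines differ, which includes culture and array, and the labels give no batch. Limma 3.58.1 (lmFit, eBayes, R 4.3.3) was fitted across all genes, with Benjamini-Hochberg adjustment, two-sided p-values, no covariates, 2 residual and 1.34 prior degrees of freedom. On simulated data of 18377 genes, 2 lines against 2, it called 4.8% of genes changed 2-fold and 71.8% of those changed 4-fold, with 8.6 false calls per simulation. The simulated noise was normal with each gene's moderated SD, which real lines need not follow. These shares average over genes, whose median SE was 0.14, against 0.46 for NR3C1, 0.88 for ASNS and 0.48 for TPMT. They do not tell how often a 4-fold change would be called in those genes. Tables and plots used Python 3.11.15, pandas 2.3.3, numpy 2.4.6, scipy 1.17.1 and matplotlib 3.10.9.

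The members and gene lists were chosen with earlier results of these data known. Named genes are the 9 members and, per drug list, genes past the threshold, those with a 2-fold difference between group means at an unadjusted p under 0.05, the 4 with the widest range, and the 3 genes most like each member with a 2-fold range. KDM1B, RNF144B, MBOAT1, CHAC1, ATF4, DDIT3, PSAT1 and the motif genes were chosen after their values were seen. So were NKG7, ZAP70, CD4, LYZ, CSF1R, MPO, the genes named only for an unadjusted p, and the motif and neighbour searches. Listed genes without a probe set of their own symbol were not analysed here.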

Additional observations from a re-analysis of the deposited data

How the results depend on the processing

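Of 99 alternative values of the 9 group differences, 93 kept their sign and 6 turned, and 0 passed limma's adjusted threshold (smallest adjusted p 0.5 with 4 lines and 0.172 with 3). With arrays centred on their medians TYMS turned to 0.02. Leaving out each line in turn, where the lone line is assumed to vary like the other group, gave ranges of 0.18 to 1.29 (NR3C1), -2.69 to -0.43 (ASNS), -0.10 to 0.51 (FPGS), -0.25 to -0.02 (SLC19A1), -0.04 to 0.03 (TYMS), -1.92 to -0.71 (TPMT), -0.78 to -0.12 (NT5C2), -0.29 to 0.18 (DCK) and 0.03 to 0.25 (SLC29A1). FPGS turned without RS4;11 (-0.10), TYMS without RS4;11 (0.0049) and REH (0.03), and DCK without SEM (0.18) and NALM6 (0.03). The count of the 9 genes at an unadjusted p under 0.05, 0 with 4 lines, was then 1 to 2. These were ASNS and NR3C1 without SEM, NT5C2 without RS4;11, and TPMT without NALM6 and without REH. In such a fit a gene's own spread comes only from the group that keeps 2 lines. These p-values are therefore no evidence of a group difference. At 4-fold 1 gene (ASNS) kept its range instead of 3, and with a 2-fold gap between the nearest lines 0 genes were separated instead of 4. Of 135 levels and ranges, 131 moved by less than the SD between lines of a group, and the 4 others were levels of TYMS. The largest move of a level was 0.08. Over all genes, limma called 4, but 28 with centred arrays, 17 without dim genes, 4 after repeated quantile normalization, 3 with an intensity trend and 0 without moderation. No paired analysis was made, because the 4 lines are separate leukaemias and the labels pair none of them. RMA gives no signal over background, so that how far values near the lower quartile of the arrays (4.97 to 5.02) lie above it is unknown.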

Other observations

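A few further genes of these pathways were singled out after their values were seen. RRM1, the large subunit of ribonucleotide reductase, was as even as TYMS, at 11.15 (RS4;11), 11.14 (SEM), 11.17 (NALM6) and 11.15 (REH). MSH6, a mismatch repair gene, was lowest in NALM6, at 10.23 against 10.86 to 11.33, and IMPDH2, the enzyme that commits purines to guanine nucleotides, was lowest in REH, at 10.38 against 11.23 to 11.59. CXCR4, a chemokine receptor gene on the glucocorticoid-induced list, was at 10.71 in RS4;11 and 9.54 in SEM against 11.82 in NALM6 and 11.39 in REH (difference -1.48, SE 0.49, limma adjusted p = 0.532).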
